A study of Drosophila melanogaster with 32 samples.

Results

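In 3 cultures of Drosophila melanogaster cells that were followed while they became continuous lines, 79 of 15251 genes set the established line R4 apart from the established lines R1 and R5. These genes were chosen by their level at the late passages 16, 17 and 19. A gene was taken when its late mean in R4 was at least 5 CPM (the count of a gene divided by the total count of its library, times 1000000) and at least 4 times the late mean of R1 and of R5. Unc-4, which passed the same limits, and OdsH were set aside by name. The late levels of the 79 genes are therefore a description of the choice and carry no test, while the libraries of earlier passages played no part in it. In 39 of the 79 genes every late R4 library stood at 4 or more times every late library of R1 and R5.

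All 3 lines were sequenced at passages 2, 3, 4, 16, 17 and 19. Between these, R4 has libraries of passages 5, 6, 7, 9, 11 and 12, R1 those of 5, 7, 8, 10 and 11, and R5 those of 6, 7 and 8. A passage is a splitting of a culture into fresh medium, here Schneider's medium with fetal bovine serum and antibiotics, and each of the 32 libraries holds the RNA of 1 passage of 1 line. The series text names passages 2 to 4 early, 4 to 11 intermediate and 16 to 19 late; passage 4, named in 2 stages, was taken as early, and R4 at passage 12, named in none, is described on its own. The early and late stages hold 3 libraries per line, and the intermediate stage holds 5 of R4, 5 of R1 and 3 of R5. The labels used here state neither the genotype nor the tissue of origin nor the cell type of the 3 lines. Each line was 1 culture, so the p-values below compare lines against the scatter among passages within 1 culture, and they cannot speak for other cultures. Total counts per library ran from 7760446 to 18213927.

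The list mixes genes of several tissues. Hemocytes are the blood cells of the fly: plasmatocytes engulf particles and bacteria through scavenger and Nimrod receptors and secrete matrix proteins, and crystal cells store the prophenoloxidases that drive melanization. Other genes of the list encode transcription factors that pattern neuroblasts, limbs, eyes, the heart and sensory neurons in the embryo and the larva. Continuous fly cultures are known to keep parts of such programmes for many passages, and lines of different cell types are told apart by them.

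Of the 79 genes, 15 depended on the R4 library of passage 17, and 7 of these were high there and in no other late R4 library. The ribosomal RNA entry CR41583 stood at 79.6, 3811 and 62.4 CPM in R4 at passages 16, 17 and 19, against 17.7 to 32.7 CPM in late R1 and 86.3 to 208 CPM in late R5. CR41608, also a ribosomal RNA entry, stood at 6.09, 218 and 4.90 CPM in the same R4 libraries. CR40963 stood at 0.143, 62.1 and 0.204 CPM, CR40679 at 0.430, 29.1 and 0.102 CPM, and CR40560 at 0.573, 22 and 0.102 CPM. All 5 are ribosomal RNA entries, whose reads may be shared among near-identical copies, and the kit that removed ribosomal RNA was made for human, mouse and rat. The pseudogene CR43361 (1.43, 83.3 and 2.66 CPM) and CG32845 (1.43, 18.1 and 0.817 CPM) behaved alike. Passage 17 held 88.9 to 99.4% of the late R4 sum of these 7 genes, and at most 52.1% of that of the other 72. The share of all 158 nuclear ribosomal RNA entries was 3.57% of the counts in this library, inside the range of 1.58 to 3.89% in the other 31 libraries. In all, 23 genes stood in R4 at passage 17 at 5 CPM or more and at 4 or more times every other library. Chosen without that library, the list would hold 67 genes, of which 64 belong to the 79. The 8 other genes that would drop out are Achl, CG13676, CG15347, CG15554, CG31445, CG3502, CG7856 and Miox. The courses of the 7 genes carried by passage 17 are not followed below, but counts over all 79 genes include them.

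**Figure D1:**
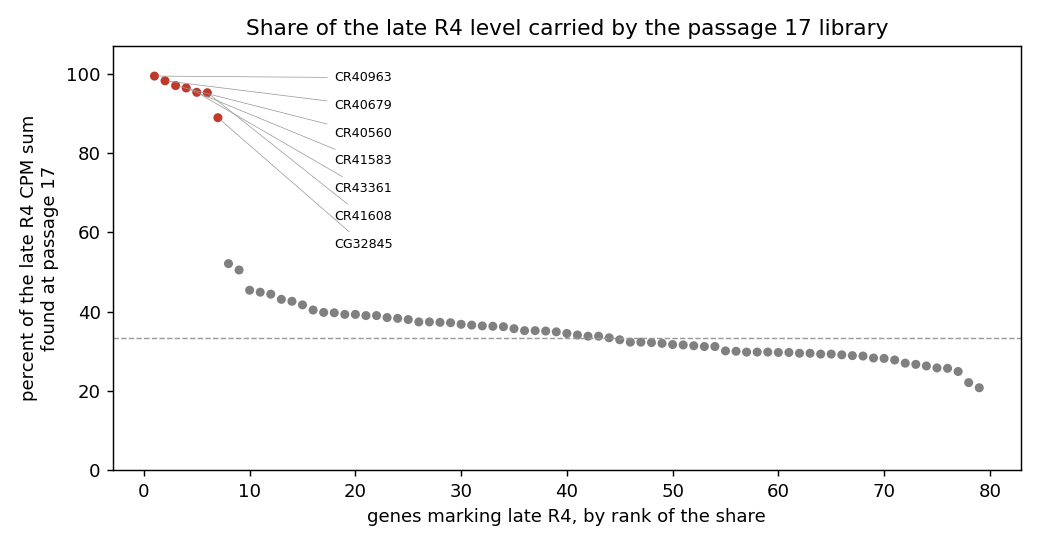
Percent of the summed CPM of R4 passages 16, 17 and 19 that came from passage 17, for each of the 79 genes marking late R4, ordered by that share. The dashed line is the share that equal libraries would give; the 7 named genes lie between 88.9 and 99.4%, and every other gene lies at 52.1% or below.

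By share of reads, not corrected for gene length, the members with the most late R4 reads after CR41583 were Pgant9, LKRSDH, stl, superdeath, NtR, Ktch and fat-spondin. Pgant9 encodes an enzyme that starts mucin-type O-glycosylation, and its late mean was 297 ± 69.7 CPM in R4, against 29.6 ± 1.37 CPM in R1 and 12.3 ± 5.24 CPM in R5 (SD, n = 3 passages each). LKRSDH, which encodes the first enzyme of lysine breakdown, stood at 197 ± 30.5 CPM in R4, against 12.2 ± 2.71 CPM in R1 and 21.0 ± 3.06 CPM in R5. The largest ratios of the late R4 mean to the higher of the other 2 belonged to CR40963, CG32106, CG33465, lectin-28C, firl, CG3502, CG14565 and lov. CG33465, for instance, stood at 53.0, 57.1 and 60.6 CPM in late R4, against 0, 0.619 and 1.87 CPM in late R1 and 0.202, 0.454 and 0.110 CPM in late R5. Just inside the limit of 4 times were klu at 4.06, CG8539 at 4.07 and Achl at 4.11, and just outside were RpS5b at 3.95, snoRNA:Psi18S-525j at 3.94 and CG9372 at 3.79. Just inside the limit on level were CG7856 at 5.17, CG13676 at 5.29 and CG3502 at 5.37 CPM in late R4, and just outside were Gfrl at 4.89, CNT2 at 4.83 and alpha-Est1 at 4.82 CPM.

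**Figure D2:**
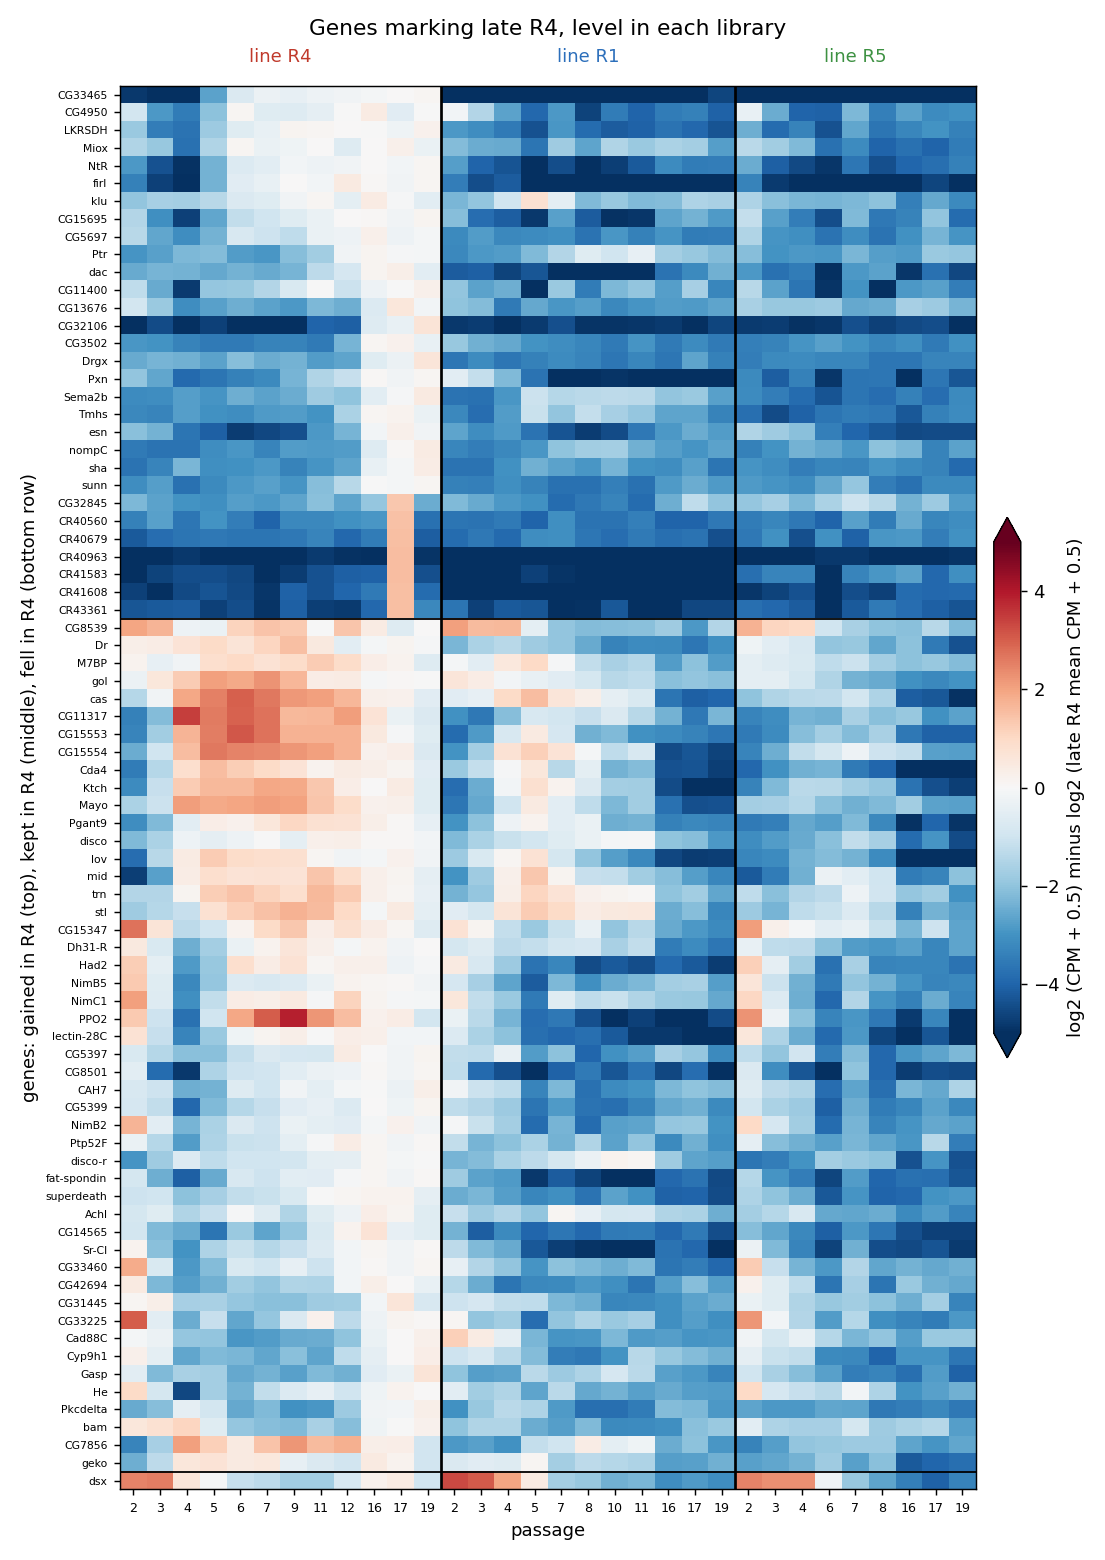
Level of all 79 genes (one per line of the map) in all 32 libraries, with R4 at the left, then R1 and R5, each in passage order, as log2 of CPM + 0.5 minus log2 of the late R4 mean + 0.5. Genes are grouped into the 30 gained, 48 kept and 1 lowered in R4 from early to late, and 7 genes at the foot of the upper block are high in R4 at passage 17 alone.

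Several of the 79 genes are known from blood cells. Of the 8 genes of the hemocyte list, 4 belong to the 79: PPO2, a prophenoloxidase of crystal cells, NimC1, a phagocytosis receptor of plasmatocytes, He, which encodes hemese, a surface glycoprotein of blood cells, and Pxn, which encodes the matrix enzyme peroxidasin. Sr-CI, a scavenger receptor, the Nimrod genes NimB2 and NimB5, the C-type lectin gene lectin-28C and the spondin gene fat-spondin are further genes of the 79 that are known from blood cells or the hemolymph; NimB2 and Sr-CI were picked after their values were seen. The summed CPM of the 8 listed genes was 703 to 811 in late R4, 291 to 472 in late R1 and 244 to 309 in late R5. At intermediate passages the sum was 232 to 1397 in R4, 119 to 432 in R1 and 91.8 to 214 in R5, and at early passages it was 169 to 853 in R4, 255 to 522 in R1 and 214 to 779 in R5. The lines overlapped in this sum at early passages, and late R4 stood above late R1 and R5, a difference that the choice of the 4 members helps to set. All 8 genes had reads in every library, and PPO2 alone held 814 of the 1397 CPM of R4 at passage 9. The summed CPM of the muscle list was 194 to 334 in late R4, 388 to 541 in late R1 and 413 to 743 in late R5, and its part in the results was not tested. In a library of a whole culture, a change in the share of cells of a type and a change in RNA per cell cannot be told apart.

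PPO2 in R4 stood at 138, 26.7 and 3.71 CPM at passages 2, 3 and 4, at 27.1, 213, 451, 814 and 253 CPM at passages 5, 6, 7, 9 and 11, at 160 CPM at passage 12, and at 64.2, 70.8 and 29.1 CPM at passages 16, 17 and 19. In R1 it stood at 43.4, 21.0 and 10.4 CPM early, at 3.44, 4.08, 2.09, 1.18 and 1.68 CPM at intermediate passages and at 0.852, 1.24 and 1.96 CPM late. In R5 it stood at 260, 46.3 and 12.8 CPM early, at 5.11, 6.77 and 4.17 CPM at intermediate passages and at 1.52, 5.22 and 0.331 CPM late. PPO2 was thus lower at passage 4 than at passage 2 in each line, and R4 stood above its own passage 2 level from passage 6 to passage 12, which R1 and R5 did not. At intermediate passages PPO2 was higher in R4 than in R1 by 7.02 ± 1.01 on the log2 scale (fitted difference ± SE, adjusted p = 2.22e-05) and higher than in R5 by 6.04 ± 1.19 (adjusted p = 0.000309). Every such p comes from edgeR's quasi-likelihood F test across 9183 genes with Benjamini-Hochberg adjustment, and a gene was called below 0.05. The change of PPO2 from early to intermediate passages differed from that in R5 by 6.95 ± 1.49 (adjusted p = 0.0079) and from that in R1 by 5.86 ± 1.4 (adjusted p = 0.0234). The call against R1 ended without R1 at passage 2 (5.21, adjusted p = 0.0775), without R4 at passage 3 (5.55, adjusted p = 0.0637), or with passage 4 counted as intermediate (4.82, adjusted p = 0.298).

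Within the lines, PPO2 rose in R4 from early to intermediate passages by 2.64 ± 0.93 (adjusted p = 0.0279), and this call ended without R4 at passage 3 (adjusted p = 0.116), passage 4 (0.0836) or passage 9 (0.0794), or with passage 4 counted as intermediate (1.83, adjusted p = 0.204). In R1 it fell by 3.22 (adjusted p = 0.0183, and 0.121 without R1 at passage 2). In R5 it fell by 4.32 (adjusted p = 0.0148), which ended without R5 at passage 2 (adjusted p = 0.176), passage 6 (0.058) or passage 8 (0.068).

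NimC1 in R4 stood at 120, 17.8 and 2.97 CPM early, at 11.8, 36.2, 34.6, 39.2 and 27.2 CPM at intermediate passages and at 31, 27.3 and 26.2 CPM late, against 7.41, 7.27 and 4.34 CPM in late R1 and 2.23, 4.65 and 2.43 CPM in late R5. In R1 it stood at 7.41 CPM at passage 4 and then at 2, 18.3, 11.5, 12.8 and 9.66 CPM at intermediate passages. In R5 it stood at 4.82 CPM at passage 4 and then at 1.4, 9.84 and 3.18 CPM. NimC1 was thus higher at passage 7 than at passage 4 in all 3 lines. Its intermediate difference from R5 was 2.62 ± 0.94 (adjusted p = 0.0301), a call that ended without R5 at passage 6 (2.19, adjusted p = 0.129) or passage 8 (2.39, adjusted p = 0.111), and its difference from R1 was 1.41 ± 0.71 (adjusted p = 0.152). Sr-CI in R4 stood at 30.9, 42.4, 33.8, 40.6 and 56.2 CPM at intermediate passages, against 4.41, 3.00, 2.56, 0.945 and 1.16 CPM in R1 and 3.19, 17.0 and 3.73 CPM in R5, where passage 4 held 8.94 CPM. Every R4 library of that stage was thus above every R1 and R5 library, and the difference from R1 was 3.96 ± 0.65 (adjusted p = 0.000104). Its difference from R5 was 2.35 ± 0.71 (adjusted p = 0.0111), which ended without R5 at passage 6 or passage 8 (adjusted p up to 0.0676). Lectin-28C was higher in R4 than in R1 by 4.17 ± 0.68 (adjusted p = 9.01e-05) and than in R5 by 3.71 ± 0.81 (adjusted p = 0.000901). Fat-spondin was higher in R4 by 3.87 ± 0.54 against R1 (adjusted p = 1.48e-05) and by 2.71 ± 0.61 against R5 (adjusted p = 0.00114).

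Pxn and He took other courses. Pxn in R4 stood at 23.2, 14.6 and 5.77 CPM at passages 2, 3 and 4, at 6.75, 8.31, 9.58, 17.9 and 32 CPM at passages 5, 6, 7, 9 and 11, at 41.1 CPM at passage 12 and at 95.8, 80.0 and 98.9 CPM at passages 16, 17 and 19. In R1 it stood at 62.9, 39.5 and 19.3 CPM early and at 2.04, 1.78 and 0.766 CPM late, and it fell between early and intermediate passages there by 3.66 on the log2 scale (SE 0.55, adjusted p = 2.68e-05). Its early to intermediate change differed between R4 and R1 by 3.69 ± 0.78 (adjusted p = 0.00948, and 0.409 with passage 4 counted as intermediate), and between R4 and R5 by 0.50 ± 0.82 (adjusted p = 0.806). He differed at intermediate passages in neither comparison past the threshold, by 1.11 ± 0.61 from R1 (adjusted p = 0.194) and by -0.26 ± 0.67 from R5 (adjusted p = 0.788), and its R4 libraries overlapped those of both lines. He and NimB5 overlap on opposite strands, and no source used here gives the strand setting of the counting, so their reads cannot be told apart.

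The 4 genes of the hemocyte list outside the 79 did not all side with R4. Hml, which encodes hemolectin of plasmatocytes, stood at 62.6, 58.6 and 90.3 CPM in late R4, against 23.9, 19.4 and 8.77 CPM in late R1 and 10.6, 24.0 and 32.8 CPM in late R5. At intermediate passages it was higher in R4 than in R1 by 1.69 ± 0.46 (adjusted p = 0.00834) and than in R5 by 1.98 ± 0.56 (adjusted p = 0.00731, and 0.053 without R5 at passage 6). Eater, a phagocytosis receptor, stood at 22.1, 17.3 and 21.0 CPM in late R4, against 25.5, 19.1 and 11.8 CPM in late R1 and 51.0, 22.8 and 35.7 CPM in late R5, so that R4 lay inside R1 and below R5. The GATA factor gene srp stood at 180 to 232 CPM in late R4, above the 98.4 to 167 CPM of late R1 and the 61.1 to 80.8 CPM of late R5. The CD36 family gene crq stood at 234 to 282 CPM in late R4. This overlapped the 161 to 240 CPM of late R1 and lay above the 109 to 147 CPM of late R5. At intermediate passages eater differed by -0.44 ± 0.66 from R1 (adjusted p = 0.675) and by 0.05 ± 0.79 from R5 (0.968). Srp differed there by 0.45 ± 0.48 from R1 (adjusted p = 0.539) and by 2.33 ± 0.63 from R5 (0.0051). Crq differed there by 0.11 ± 0.24 from R1 (adjusted p = 0.787) and by 1.59 ± 0.30 from R5 (0.000188). Eater thus passed the threshold in neither comparison, and srp and crq only against R5.

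**Figure D3:**
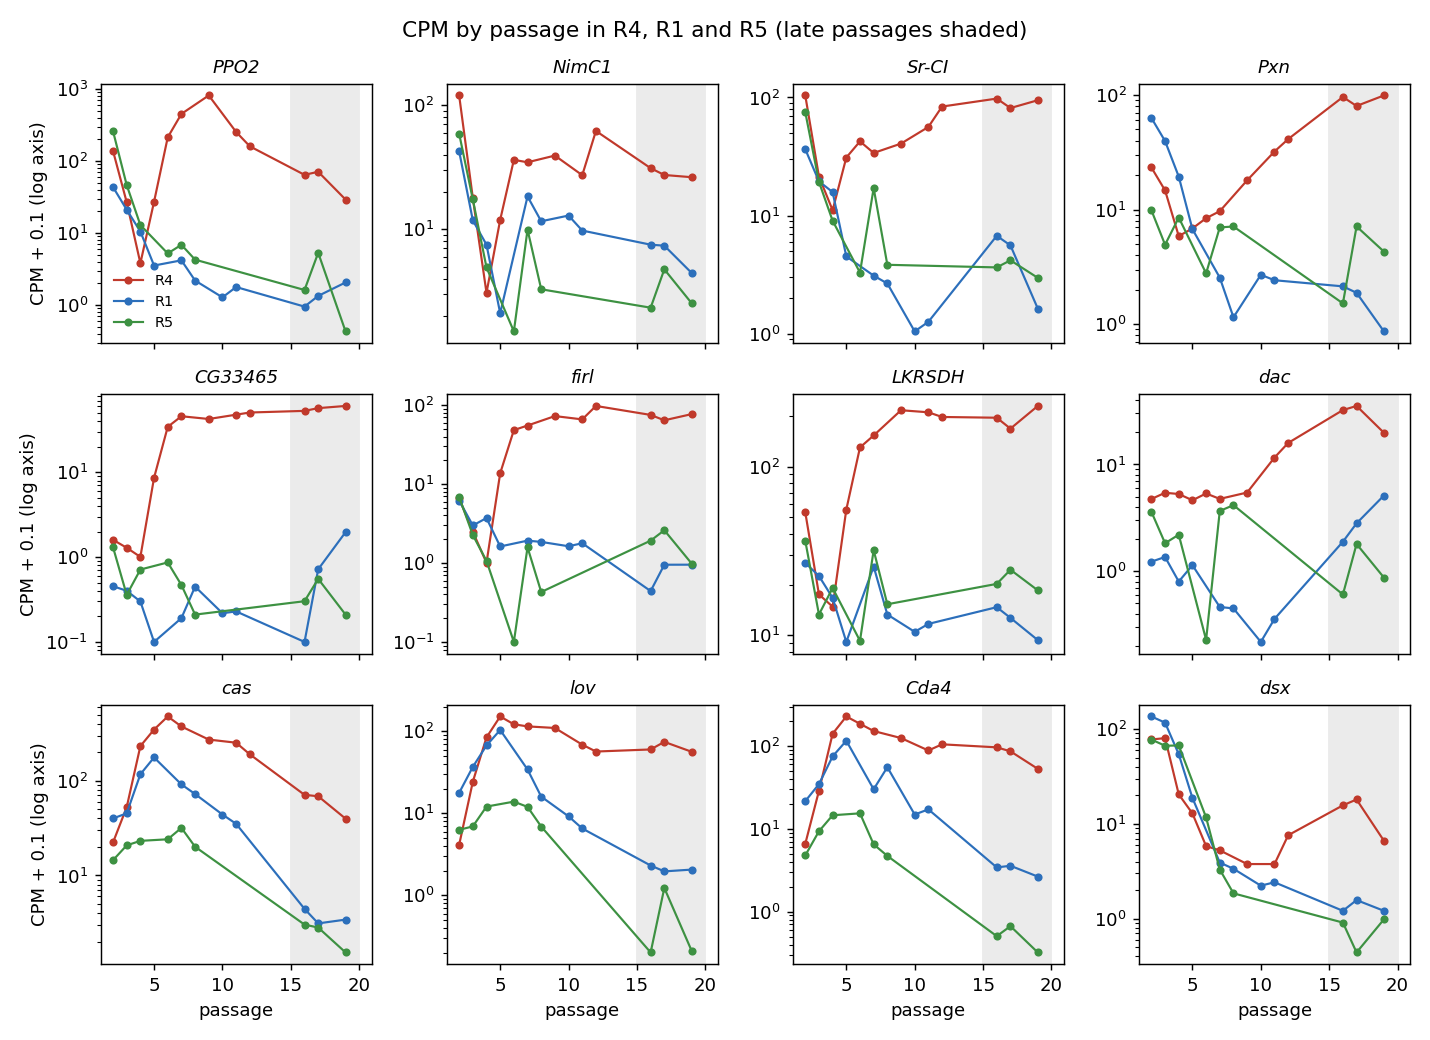
CPM + 0.1 on a log axis by passage in R4, R1 and R5 for 12 genes, with the late passages shaded; points are single libraries joined in passage order. PPO2, NimC1 and Sr-CI are lower at passage 4 than at passage 2 in all 3 lines and higher again in R4 after it. At passage 7, NimC1 is also higher than at passage 4 in R1 and R5, and Sr-CI in R5. Every R4 point of CG33465, firl and LKRSDH from passage 5 on lies above the R1 and R5 points from passage 5 on. Cas, lov and Cda4 peak at passages 5 to 7, with late R4 above late R1 and R5.

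Transcription factor genes of the 79 took several courses. Of 276 listed transcription factor genes 202 were tested, and 8 belong to the 79: disco-r, mid, dac, disco, Dr, dsx, klu and Drgx. The list is not complete, since cas and lov, described below, are not on it. Dr and dac stood above R1 and R5 in every early R4 library. Dr, the homeobox gene of muscle and dorsal neural patterning, stood in R4 at 17.4, 18.9 and 23.2 CPM early and at 28, 22.6, 30.7, 41.7 and 20.3 CPM at intermediate passages. In R1 it stood at 2.55, 4.45 and 5.21 CPM early and at 3.77, 3.27, 2.09, 0.945 and 1.16 CPM at intermediate passages, and in R5 at 12.4, 9.85 and 7.89 CPM and then at 3.32, 3.45 and 1.97 CPM. No R4 library overlapped R1 or R5 at either stage, and Dr was higher at intermediate passages by 3.57 ± 0.37 against R1 (adjusted p = 4.31e-07) and by 3.31 ± 0.46 against R5 (adjusted p = 4.72e-06). At early passages its difference from R1 was 2.29 ± 0.45 (adjusted p = 0.0084), a call that ended without R1 at passage 2 (2.05, adjusted p = 0.0752), and that from R5 was 0.98 ± 0.42 (adjusted p = 0.294).

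Dac, a nuclear factor of eye and leg development, stood in R4 near 5 CPM up to passage 9, at 4.65, 5.33 and 5.19 CPM early and at 4.52, 5.25, 4.66, 5.36 and 11.5 CPM at intermediate passages, then at 15.8 CPM at passage 12 and at 32.2, 35.2 and 19.7 CPM late. R1 lay at 0.118 to 1.26 CPM up to passage 11, and the intermediate difference was 3.70 ± 0.54 (adjusted p = 2.98e-05). R5 stood at 0.128, 3.57 and 4.06 CPM at intermediate passages, and the difference from it was 1.26 ± 0.54 (adjusted p = 0.0675). Drgx, a paired-like homeobox gene, stood at 0.367 to 0.888 CPM in R4 up to passage 12 and at 3.51, 4.44 and 8.68 CPM late, against at most 0.464 CPM in any R1 library and 0.175 CPM in any R5 library.

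The intermediate libraries of R4 and R1 overlapped in disco, disco-r and mid. The paralogous zinc finger genes disco and disco-r stood in R4 at 21.7 and 27.6 CPM at passage 11, against 17.5 and 41.1 CPM in R1 at the same passage. Late R4 held disco at 18.8, 18.9 and 16.5 CPM, against 4.09, 3.71 and 2.04 CPM in late R1 and 0.809, 1.93 and 0.331 CPM in late R5, so that R1 left this level between passages 11 and 16. From early to intermediate passages disco-r rose in R1 by 1.72 ± 0.42 on the log2 scale (adjusted p = 0.00265), while its difference between these stages in R4 was 0.63 (adjusted p = 0.229). In R5 disco-r rose by 1.62 (adjusted p = 0.0273), which ended without any 1 of the R5 libraries of passages 2, 3, 6, 7 and 8 (adjusted p up to 0.115). Disco rose in R1 by 1.32 ± 0.39 (adjusted p = 0.0111, and 0.0869 without R1 at passage 2) and in R5 by 1.37 (adjusted p = 0.0464), which ended without any 1 of 16 libraries (adjusted p up to 0.175). Disco rose in R4 by 1.0 ± 0.38 (adjusted p = 0.0414), a call that ended without any 1 of the R4 libraries of passages 2, 3, 6, 7 and 11 (adjusted p up to 0.225). The T-box gene mid stood in R4 at 0.752, 4.54 and 42.3 CPM early and at 57.8, 52.1, 53.8, 52.2 and 85.7 CPM at intermediate passages. In R1 it stood at 3.61, 9.14 and 38.5 CPM and then at 82.0, 35.8, 14.1, 13.9 and 9.41 CPM, and neither line difference of mid passed the threshold at intermediate passages (adjusted p = 0.354 against R1 and 0.153 against R5).

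Dsx, which directs somatic sex differentiation, was the 1 gene of the 79 whose late R4 mean lay 4 or more times below its early mean. It stood in R4 at 77.7, 80.3 and 20.4 CPM early, at 3.67 CPM at passages 9 and 11, and at 15.6, 18 and 6.54 CPM late. In R1 it stood at 136, 117 and 54.3 CPM early and 1.11, 1.47 and 1.11 CPM late, and in R5 at 77.6, 66.7 and 67.2 CPM early and 0.809, 0.340 and 0.883 CPM late. Dsx fell from early to intermediate passages in R4 by 3.26 (SE 0.57, adjusted p = 0.00013), in R1 by 3.97 (SE 0.58, adjusted p = 2.19e-05) and in R5 by 3.71 (SE 0.72, adjusted p = 0.00165, and 0.298 with passage 4 counted as intermediate). Late R4 thus stood above R4 at passage 11, but its passage 19 lay below R4 at passage 5 (12.8 CPM) and passage 12 (7.49 CPM). Late R1 and R5 did not stand above their own last intermediate libraries.

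Cas and lov, a temporal factor of neuroblasts and a BTB domain factor, stood high at intermediate passages in R4, as did the surface gene trn, the chitin deacetylase gene Cda4, the ADAMTS-type protease gene stl and Pgant9. Cas stood in R4 at 22.2, 52.5 and 232 CPM early, at 347, 477, 374, 272 and 252 CPM at intermediate passages and at 70.9, 68.5 and 39.7 CPM late. In R1 it stood at 39.9, 45.2 and 117 CPM, then at 176, 91.4, 72.3, 43.9 and 35.0 CPM and at 4.34, 3.02 and 3.32 CPM late. In R5 it stood at 14.4, 20.7 and 23.1 CPM, at 24.0, 31.7 and 20 CPM and at 2.93, 2.72 and 1.44 CPM late. Late cas was therefore lower than at intermediate passages in all 3 lines, and late R4 stood above late R1 and R5. At intermediate passages cas was higher in R4 by 1.98 ± 0.46 against R1 (adjusted p = 0.00277) and by 3.78 ± 0.63 against R5 (adjusted p = 4.63e-05).

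Lov stood at 60.1, 74.4 and 56.3 CPM in late R4, against 2.21, 1.86 and 1.96 CPM in late R1 and 0.101, 1.13 and 0.110 CPM in late R5. In R1 it had reached 104 CPM at passage 5, against 152 CPM in R4 at the same passage. Lov was higher in R4 than in R5 at intermediate passages by 3.40 ± 0.82 (adjusted p = 0.00201), and its difference from R1 was 1.66 ± 0.60 (adjusted p = 0.0442), a call that ended without any 1 of 11 libraries (R4 at passages 5, 6, 7, 9 and 16 and R1 at passages 7, 8, 10, 11, 16 and 17), with adjusted p-values up to 0.107. Cda4 was higher in R4 than in R5 by 4.17 ± 0.83 (adjusted p = 0.000321). Its difference from R1 was 1.68 ± 0.57 (adjusted p = 0.0342), which ended without any 1 of 6 libraries (R4 at passages 5 and 6 and R1 at passages 7, 8, 10 and 11), with adjusted p-values up to 0.0871.

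Stl rose from early to intermediate passages in R4 by 2.82 ± 0.38 (adjusted p = 1.13e-05), to 294, 391, 477, 582 and 510 CPM, and the libraries of R1 stood at 412, 330, 223, 241 and 251 CPM in the same stage. Its intermediate difference from R1 was 0.58 ± 0.29 (adjusted p = 0.139) and that from R5 2.44 ± 0.37 (adjusted p = 1.49e-05). At late passages stl stood at 160, 235 and 121 CPM in R4, against 30, 38.8 and 17.3 CPM in R1 and 16.0, 33.0 and 26.1 CPM in R5. Trn, which encodes a leucine-rich repeat surface protein, rose in R4 by 2.01 ± 0.49 (adjusted p = 0.0025). In R1, trn rose by 1.39 ± 0.48 (adjusted p = 0.028), which ended without R1 at passage 2, 3 or 5 (adjusted p up to 0.17), and stl by 0.90 (adjusted p = 0.0409), which ended without R1 at passage 2, 3, 5 or 7 (adjusted p up to 0.218). The difference of trn from R1 at intermediate passages was 0.74 ± 0.39 (adjusted p = 0.178). Pgant9 in R1 stood at 336, 204, 235, 54.7 and 58.0 CPM at passages 5, 7, 8, 10 and 11, so its lower R1 level was present from passage 10, while stl in R1 still stood at 251 CPM at passage 11.

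A run of neighbouring genes on arm 3R held 5 of the 79. In map order these are CG11317, CG15553, Mayo, CG15554 and Ktch, with Prosalpha3T, a testis-specific proteasome subunit gene, between Mayo and CG15554. CG11317 stood in R4 at 0.342, 1.43 and 96.6 CPM at passages 2, 3 and 4, at 52.7, 66.8, 56.7, 26.5 and 27.1 CPM at intermediate passages and at 13.4, 6.50 and 4.80 CPM late. R1 held 0.232 to 4.84 CPM of it in any library and R5 0.384 to 2.34 CPM. Ktch stood in R4 at 10.9, 45.2 and 247 CPM early, at 311, 308, 391, 374 and 260 CPM at intermediate passages and at 101, 135 and 67.1 CPM late, against 2.55 to 4.09 CPM in late R1 and 3.42 to 7.38 CPM in late R5. The highest R4 library of the 5 genes was one of passages 4 to 7, and each stood lower at passage 19.

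At intermediate passages the 5 genes of the run were each higher in R4 than in R1 and than in R5. Mayo differed by 2.62 ± 0.58 from R1 (adjusted p = 0.00175) and by 4.34 ± 0.81 from R5 (adjusted p = 0.00018), and CG15553 by 3.54 ± 0.80 (adjusted p = 0.0022) and 4.61 ± 1.09 (adjusted p = 0.00173) from R1 and R5. CG11317 differed by 3.49 ± 0.79 from R1 (adjusted p = 0.00236) and by 4.77 ± 1.10 from R5 (adjusted p = 0.00141). For CG15554 the difference was 2.10 ± 0.63 from R1 (adjusted p = 0.0162) and 3.08 ± 0.81 from R5 (adjusted p = 0.0043). Ktch differed by 3.38 ± 0.83 from R5 (adjusted p = 0.00254) and by 1.94 ± 0.63 from R1 (adjusted p = 0.0258), and the call against R1 ended without R1 at passage 8 (1.84, adjusted p = 0.0592), passage 10 (1.73, adjusted p = 0.0686) or passage 11 (1.74, adjusted p = 0.0636). Prosalpha3T, at 1.79 CPM in intermediate R4, was also higher, by 2.59 ± 0.63 from R1 (adjusted p = 0.00389) and by 3.40 ± 0.86 from R5 (adjusted p = 0.0032). Sox100B and dco, both on the CG11317 side of the run, were not called higher. On the Ktch side, lncRNA:CR43458 and Gycbeta100B averaged 0.0647 and 0.206 CPM in intermediate R4 and were not tested. Sox100B averaged 6.47 CPM in intermediate R4, against 4.84 CPM in R1 (adjusted p = 0.409) and 12.1 CPM in R5 (adjusted p = 0.0245, lower in R4). Dco averaged 173 CPM in intermediate R4, against 191 CPM in R1 (adjusted p = 0.017, lower in R4) and 174 CPM in R5 (adjusted p = 0.996). NimB5, He and NimC1 form a run of 3 on arm 2L, and the tested genes beside it were each called higher in R4 in 1 comparison. NimB3 differed by 2.89 from R1 (adjusted p = 0.046) and 2.62 from R5 (0.106), and NimB4 by 1.87 (0.094) and 3.20 (0.0277). Cyp28a5 differed by 0.20 from R1 (adjusted p = 0.841) and 2.86 from R5 (0.00778). NimC2 was not tested.

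CG33465 and firl stood low in all 3 lines early and high in R4 after passage 4. CG33465 stood in R4 at 1.5, 1.19 and 0.906 CPM early and at 8.53, 34.3, 45.8, 42.5 and 47.8 CPM at intermediate passages, against at most 0.349 CPM in intermediate R1 and 0.766 CPM in intermediate R5. Its difference was the largest of the 76 tested genes in both line comparisons, 8.00 ± 0.64 from R1 (adjusted p = 4.28e-09) and 6.45 ± 0.70 from R5 (adjusted p = 1.73e-07). Firl stood in R4 at 6.49, 2.39 and 0.906 CPM early and at 13.6, 48.2, 55.1, 72.6 and 65.9 CPM at intermediate passages, and differed by 4.89 ± 0.53 from R1 (adjusted p = 7.82e-07) and by 6.39 ± 0.78 from R5 (adjusted p = 8.14e-07). Its early to intermediate change was larger in R4 than in R1 by 5.24 ± 0.83 (adjusted p = 0.000572) and than in R5 by 6.43 ± 1.01 (adjusted p = 0.000687).

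LKRSDH stood in R4 at 53.6, 17.4 and 14.7 CPM early and at 55.6, 130, 153, 216 and 210 CPM at intermediate passages, against 9.05, 25.5, 13.2, 10.4 and 11.6 CPM in R1 and 9.19, 31.9 and 15.2 CPM in R5. It rose in R4 by 2.42 ± 0.48 (adjusted p = 0.000373) and differed from R1 by 3.40 ± 0.42 (adjusted p = 3.42e-06). NtR rose in R4 by 3.21 ± 0.58 (adjusted p = 0.00016), and its change was larger than in R1 by 4.67 ± 0.79 (adjusted p = 0.00153) and than in R5 by 4.06 ± 0.84 (adjusted p = 0.00597). Miox, which encodes the oxygenase that breaks down inositol, stood in R4 at 4.23, 13.6, 10.1, 10.9 and 12.8 CPM at intermediate passages, against 0.511, 0.984 and 0.329 CPM in R5, and its change was larger than in R5 by 4.52 ± 0.86 (adjusted p = 0.00351). Gol, a RING domain ubiquitin ligase gene picked after its values were seen, rose in R4 by 1.12 ± 0.33 (adjusted p = 0.00931) and fell in R1 by 1.15 (SE 0.32, adjusted p = 0.00778) and in R5 by 1.55 (SE 0.41, adjusted p = 0.0126). The R4 call of gol ended without R4 at passage 2 (adjusted p = 0.0803), that in R1 without R1 at passage 2 (adjusted p = 0.0603) and that in R5 without R5 at passage 7 or 8 (adjusted p up to 0.0725). PPO2 was the other gene with a rise in R4 and a fall in both R1 and R5.

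Several genes stood near 0 in R4 up to passage 12 and at 4 CPM or more in the late libraries. CG32106 stood at 0 to 0.643 CPM in R4 up to passage 12 and at 11.3, 13.8 and 28.2 CPM late, against at most 0.363 CPM in any R1 library and 0.369 CPM in any R5 library. CG3502 stood at 0 to 0.672 CPM up to passage 12 and at 5.73, 6.28 and 4.09 CPM late. The mechanosensory channel gene nompC stood at 0.0796 to 0.588 CPM up to passage 12 and at 4.23, 7.36 and 9.30 CPM late, and at intermediate passages it was lower in R4 than in R1, by 1.49 (SE 0.42, adjusted p = 0.0105, and 0.123 with passage as a block), with 0.371, 0.484, 0.25, 0.588 and 0.551 CPM in R4, against 0.481, 1.36, 1.75, 1.77 and 0.902 CPM in R1. Sha, a gene of wing hair formation, stood at 0.0684 to 0.989 CPM before passage 16 and at 5.09, 6.39 and 8.99 CPM after it, and sunn, a gene of meiotic cohesion picked after its values were seen, at 0 to 2.02 CPM and at 6.09, 5.74 and 6.54 CPM.

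Sema2b, a secreted axon guidance ligand, stood higher in R4 after passage 12 than before. It stood in R4 at 10.4, 15.1, 12.7, 14.7 and 24.2 CPM at intermediate passages, at 20.2 CPM at passage 12 and at 58.6, 79.7 and 113 CPM late. R1 held 40.0, 30.5, 32.7, 33.1 and 32.5 CPM at intermediate passages and 21.2, 22.8 and 12.2 CPM late, so R4 was below every R1 library in the intermediate stage and above every one in the late stage. The intermediate difference was -1.17 ± 0.23 from R1 (adjusted p = 0.000689) and 1.57 ± 0.31 from R5 (adjusted p = 0.000293). Ptp52F, a receptor tyrosine phosphatase gene, stood at 9.39, 7.47 and 8.99 CPM in late R4, against 0.511 to 1.24 CPM in late R1 and 0.331 to 2.95 CPM in late R5. Cad88C, a cadherin gene, stood in R4 at 9.77, 8.36 and 2.39 CPM early, at 0.969 to 2.30 CPM at intermediate passages and at 8.10, 10.5 and 12.5 CPM late, and it fell from early to intermediate passages in R4 by 2.24 (SE 0.39, adjusted p = 0.000109) and in R1 by 3.51 (SE 0.39, adjusted p = 2.67e-06). Cyp9h1, a cytochrome P450 gene, stood in R4 at 13.5, 7.8 and 1.4 CPM early, at 2, 1.86, 1.42, 2.2 and 1.38 CPM at intermediate passages and at 8.1, 11.3 and 14 CPM late. Its early and intermediate R4 libraries overlapped, and its fall of 2.09 in R4 (adjusted p = 0.00217) ended without R4 at passage 2 (-1.37, adjusted p = 0.0606). Gasp, a chitin-binding protein gene, stood in R4 at 5.19, 1.27 and 2.14 CPM early, at 2, 0.888, 1.08, 0.735 and 1.29 CPM at intermediate passages and at 5.02, 5.95 and 12.2 CPM late. These stages overlapped too, and its call between them (adjusted p = 0.0479) ended without any 1 of 19 libraries, among them R4 at passage 2 (-0.51, adjusted p = 0.522).

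Bam, a differentiation factor of the germline, was called higher in early R4 against R1 and against R5. It stood in R4 at 10.9, 12.5 and 16.0 CPM early, at 4.60, 1.53, 1.25, 1.18 and 2.02 CPM at intermediate passages and at 6.09, 7.15 and 8.48 CPM late. Early R1 held 1.42, 2.22 and 2.20 CPM and early R5 4.89, 2.16 and 1.93 CPM, so no early R4 library overlapped them. The early difference was 2.75 ± 0.51 from R1 (adjusted p = 0.00624) and 2.13 ± 0.49 from R5 (adjusted p = 0.0377). Without R1 at passage 2 the first had an adjusted p of 0.0678, and the second was lost without R4 at passage 4 (0.175), R4 at passage 17 (0.0503), R5 at passage 3 (0.2) or R5 at passage 4 (0.2). From early to intermediate passages bam fell in R4 by 2.63 (SE 0.43, adjusted p = 5.81e-05, and 0.116 with passage 4 counted as intermediate). Of the germline list bam alone belongs to the 79. The lists of muscle, muscle precursor, neuron, glia and fat body genes hold none of them.

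Of the 79 genes 76 passed the limit on low counts (1 CPM or more in 3 or more libraries) and were tested. In the comparison of intermediate libraries with R1, 43 were higher and 5 lower in R4, where 11.7% and 12.9% of all tested genes were called in these directions. The median difference of the 76 was 1.76 on the log2 scale, against 0.00 over all tested genes. In the comparison with R5, 46 were higher and 2 lower, where the shares of all tested genes were 18.9% and 18.8%, and the medians were 2.26 and 0.01. The 2 comparisons share the R4 libraries. In 29 of the 76 every intermediate R4 library lay above every intermediate library of R1 and R5, as in 5.06% of all tested genes. Those lower in R4 than in R1 were Tmhs, nompC, Gasp, Sema2b and Ptr, and those lower than in R5 were CG3502 and CG32845. Gasp, at an adjusted p of 0.0485, ended without any 1 of 19 libraries (up to 0.131) and with passage as a block (0.204). CG3502 rested on 2 reads in intermediate R4 and 6 in intermediate R5, and its call ended without any 1 of the libraries of R4 from passages 5, 6 and 11 or of R5 from passages 6 and 7 (adjusted p up to 0.158), with passage 12 added to R4 (0.508) and with the block (0.0642). Tmhs and Ptr, named for this call, stood at 0.807 to 1.10 and 1.5 to 4.04 CPM in intermediate R4, against 2.36 to 4.65 and 2.80 to 11.0 CPM in intermediate R1. Of the 76, 4 passed the limit on low counts through the late R4 libraries alone (CG32106, CG3502, Drgx and sha), and CR40560, CR40679 and CR40963 did not pass it. The late libraries that chose these 4 also admitted them, so their calls are no test. Drgx is among the 43, the 46 and the 29, and CG3502 among the 2 lower than in R5.

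**Figure D4:**
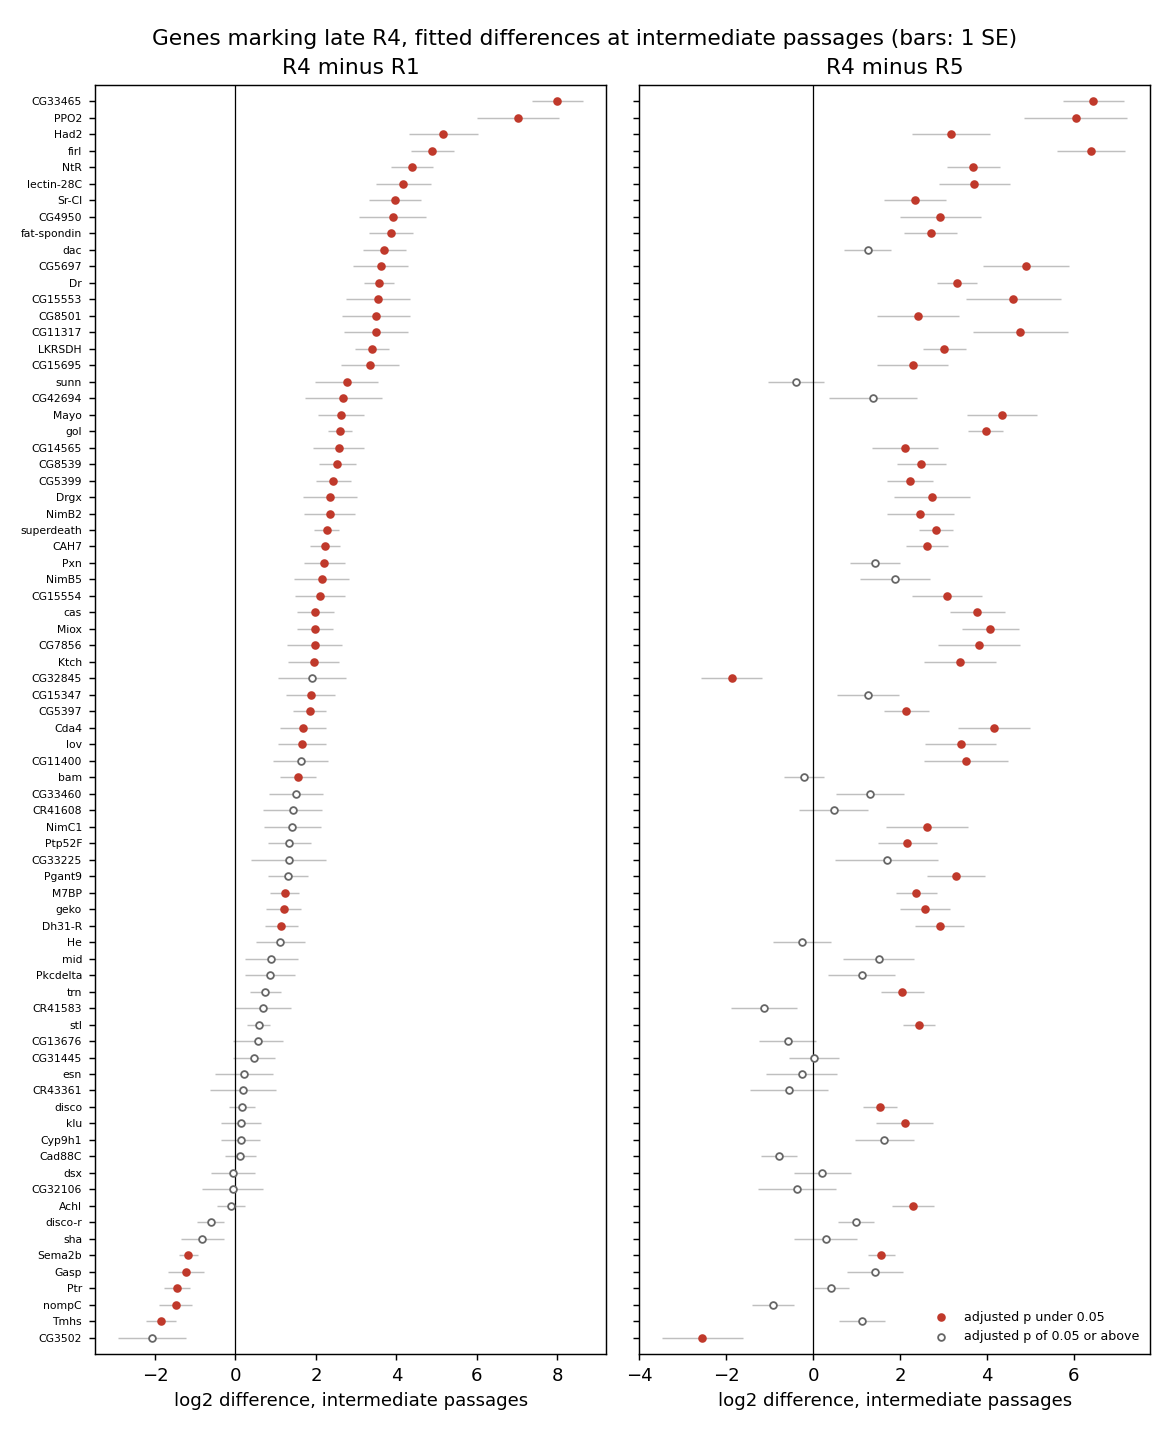
Fitted log2 difference between R4 and R1 (left) and between R4 and R5 (right) at intermediate passages for the 76 tested genes, ordered by the difference from R1, with bars of 1 SE. Filled points have an adjusted p under 0.05; 43 lie to the right of 0 at the left and 46 at the right, with CG33465 at 8.00 and 6.45, and both panels rest on the same R4 libraries.

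Few of the genes were called different at passages 2 to 4. The median early difference of the 76 from R1 was 0.53 on the log2 scale, against 0.02 over all tested genes. From R5 the medians were 0.41 and 0.01. Against R1, CG11317, CG7856, bam and Dr were higher in R4 and none was lower, where 0.566% and 0.915% of all tested genes were called; at an unadjusted p under 0.05, 15 of the 76 were higher and 4 lower. Against R5, CG11317, bam, disco and disco-r were higher and none was lower, where the shares were 0.392% and 0.403%; at an unadjusted p under 0.05, 20 were higher and 1 lower. With DESeq2 the counts of genes higher were 7 and 11. Fitted with passage as a block, since early libraries of the same passage deviated together in all line pairs, they were 7 against R1 and 8 against R5. The shares of all tested genes given above belong to the adjusted edgeR calls. Shares at the unadjusted limit, with DESeq2 or with the block are not given, so those counts have no baseline. The counts of adjusted edgeR calls moved with single libraries. Against R1 the count was 0 without R1 at passage 2 and 2 without R4 at passage 4, and against R5 it was 0 without R4 at passage 4, R5 at passage 3 or R5 at passage 4, 11 without R4 at passage 2 and 7 without R4 at passage 3. It was 1 without R4 at passage 17, and 2 without any 1 of the libraries of R4 from passages 6, 7, 16 and 19, of R1 from passages 3, 7, 11 and 17, or of R5 from passages 2 and 8. With passage 4 counted as intermediate it was 0 in each comparison. The call of CG11317 rested on R4 at passage 4: without that library its difference was 0.29 from R1 (adjusted p = 0.95) and 0.35 from R5 (adjusted p = 0.945). That of CG7856 against R1 did so too, at 1.13 (adjusted p = 0.722) without it. The calls of disco and disco-r against R5 ended without any 1 of 14 and of 20 libraries, with adjusted p-values up to 0.456 for disco and 0.461 for disco-r. In Dr, Drgx, bam and dac every early R4 library lay above every early library of R1 and R5, as in 1.37% of all tested genes. Drgx passed the limit on low counts only through the late R4 libraries that chose it, so its place here is no test. Its early R4 libraries held 8, 9 and 8 reads.

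From early to intermediate passages 15 of the 76 rose and 9 fell in R4, where 15.3% and 21.3% of all tested genes did so, a count of rises near the share of all genes. In R1, 11 rose and 21 fell (15.5% and 19.7% of all tested genes), and in R5, 2 rose and 22 fell (5.26% and 9.54%). The change was larger in R4 than in R1 for 14 genes and smaller for 2, Gasp and Sema2b, where the shares of all tested genes were 0.86% and 1.47%. It was larger in R4 than in R5 for 12 genes and smaller for 1, bam, where the shares were 1.46% and 2.73%. The genes with a larger change than in R1 were Had2, Pxn, CAH7, CG5399, fat-spondin, LKRSDH, CG8539, gol, NtR, firl, PPO2, CG4950, CG33465 and stl. Those with a larger change than in R5 were superdeath, Dr, CAH7, LKRSDH, gol, NtR, firl, PPO2, Miox, CG5697, CG33465 and stl, and with passage as a block their number was 20. With passage 4 counted as intermediate, the numbers were 1 against R1 and 6 against R5, and the adjusted p-values were 0.167 for firl and 0.124 for NtR against R1, and 0.0503 for NtR and 0.101 for Miox against R5.

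With passage as a block, no change was called smaller in R4: Gasp and Sema2b each had an adjusted p of 0.109 against R1, and bam one of 0.0753 against R5. The block also ended the larger changes of CG8539 against R1 (0.0927) and of CG5697 against R5 (0.0588). Without 1 library, the smaller changes ended for bam against R5 (0.0465) in 19 cases (up to 0.13), for Gasp against R1 (0.0498) in 21 (up to 0.134) and for Sema2b against R1 without R4 at passage 4 or 7 or R1 at passage 2 or 3 (up to 0.0981). The larger changes of LKRSDH, NtR, firl, Pxn and gol against R1 stayed below 0.05 without any 1 library (adjusted p up to 0.0461), as did those of NtR, firl, PPO2, Miox and gol against R5 (up to 0.0459).

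These counts also moved with single libraries. The 15 rises in R4 were 9 without R4 at passage 3 and 23 without R4 at passage 4. The 21 falls in R1 were 13 without R1 at passage 2. The 22 falls in R5 were 8 without R5 at passage 2, 11 without R5 at passage 6 and 4 without R5 at passage 8. The 14 larger changes than in R1 were 6 without R1 at passage 2 and 8 without R4 at passage 3. The 12 larger changes than in R5 were 20 without R4 at passage 2, 19 without R4 at passage 4, 6 without R5 at passage 2, 7 without R5 at passage 6 and 6 without R5 at passage 8.

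The early R4 libraries differed widely among themselves in these genes. Of the 79, 32 were 4 or more times lower at passage 4 than at passage 2 and 18 were 4 or more times higher, against 7.15% and 2.74% of all tested genes. Blood-cell genes were among the first: He stood at 59.7, 16.6 and 0.824 CPM at passages 2, 3 and 4, and NimB5 at 36.3, 9.23 and 1.07 CPM. The second included cas, lov, mid, the 5 genes of the 3R run, and CG7856 on arm 2R, which stood at 0.0684, 1.27 and 22.7 CPM. In R1, He stood at 21.0, 8.90 and 10.5 CPM, cas at 39.9, 45.2 and 117 CPM and CG7856 at 0.283, 0.361 and 0.2 CPM at the same passages, so that CG7856 did not stand higher at passage 4 there. In R5, He stood at 61.6, 17.1 and 13.6 CPM, cas at 14.4, 20.7 and 23.1 CPM and CG7856 at 0.0549, 0.346 and 0.964 CPM. The summed CPM of the marker lists differed over these passages too. The hemocyte list summed to 853, 363 and 169 CPM in R4, 522, 353 and 255 CPM in R1 and 779, 309 and 214 CPM in R5. The fat body list summed to 525, 71.5 and 19.5 CPM in R4, 86.7, 38.8 and 29 CPM in R1 and 376, 81.3 and 41.6 CPM in R5. The germline list summed to 242, 192 and 73.3 CPM in R4, 465, 344 and 152 CPM in R1 and 201, 156 and 158 CPM in R5. The part of these cell types in the differences among early libraries was not tested.

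Set between the early and the late mean of the same line, the 79 genes fell into several classes. In R4 30 were gained (late mean 4 or more times the early mean), 48 were kept within that factor and 1 fell, against 1.69%, 91.5% and 6.8% of all tested genes; without the 7 genes of passage 17, 23 were gained. Lost from an early mean of 1 CPM or more by the same factor were 28 in R1 and 30 in R5, against 5.43% and 5.86% of all tested genes. Of these, 18 were lost in both lines and 22 in 1 of them, and 39 in neither, against 2.8% lost in both and 91.5% in neither over all genes. Among the 30 gained, 25 were lost in neither line, or 18 without the 7 genes of passage 17. Those 7 are also among the 39. Among the 48 kept, 17 were lost in both, 17 in 1 and 14 in neither. The late libraries chose the genes, so these counts are given as a description.

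**Figure D5:**
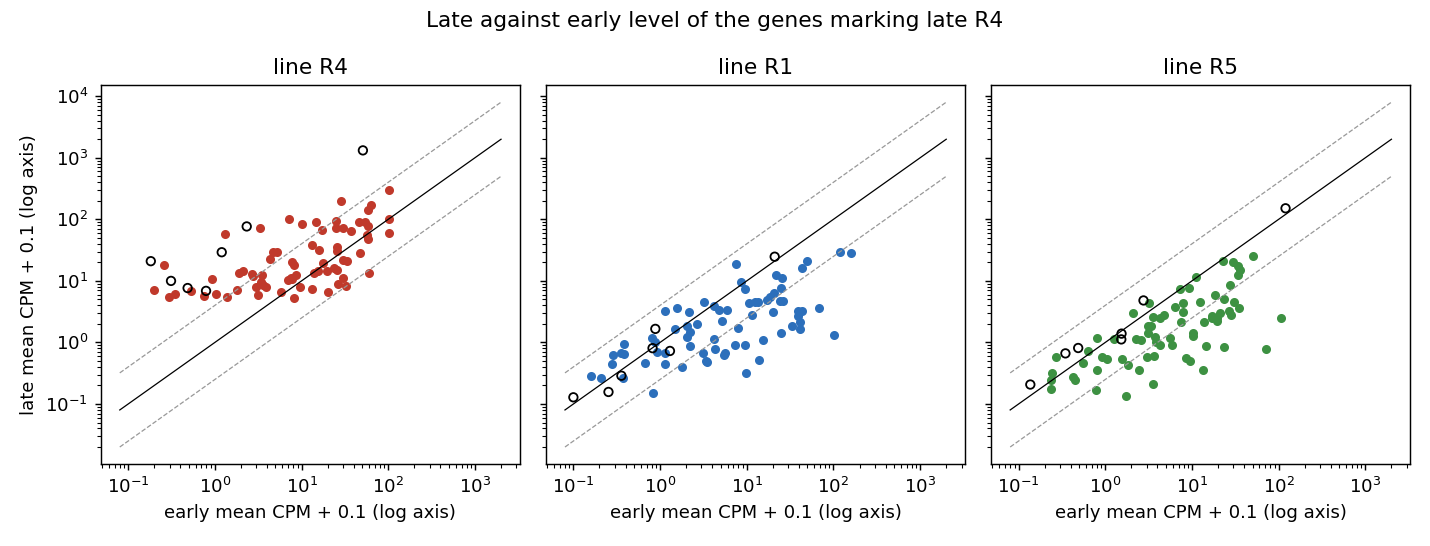
Late mean against early mean (CPM + 0.1, log axes) of the 79 genes in R4, R1 and R5, with the line of equality and dashed lines at 4 times above and below; open circles are the 7 genes carried by R4 at passage 17. Without the offset of 0.1, the late mean was 4 or more times the early mean for 30 genes in R4. In R1 and R5, 28 and 30 genes with an early mean of at least 1 CPM were lower late by that factor. With the offset, genes near the limit, such as klu and CG13676 in R4, fall on the other side of a dashed line.

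The passage of gain was taken, for kept as well as gained genes, as the passage from which R4 stayed at 0.5 or more times its late mean. This was passage 2 for gol, M7BP, Dr and CG8539 and passage 3 for cas. By passage 5 it was reached by 17 of the 79 genes, among them the 3R run, lov, mid, disco, trn, Cda4, Pgant9 and stl. At passages 6 to 9 a further 24 followed, with PPO2, NimC1, lectin-28C, CG33465, firl, LKRSDH and NtR at passage 6, and 8 at passages 11 and 12. At passage 16 it was reached by 20, among them Pxn, Sema2b, Drgx, nompC, sha, CG32106, CG3502 and He. Of these, He was kept and not gained from early to late, with a late R4 mean of 30.9 CPM. Its R4 libraries of passages 9, 11 and 12 stood at 19, 23.3 and 15.4 CPM, and only that of passage 12 lay just below the mark. No such passage was found for 10: the 7 genes of passage 17, dsx, geko and CG7856, whose level at passage 19 was below that mark.

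The passage of loss was taken as the passage from which a line stayed below 0.25 times the late R4 mean. In R1 the early mean of 40 genes was already below it, 11 left it by passage 5, 7 at passages 7 to 11 and 19 at passages 16 to 19, and CG8539 and klu had not left it at passage 19. In R5 the early mean of 42 genes was below it, 10 left it by passage 5, 15 at passages 6 to 8 and 11 at passages 16 to 19, and CAH7 had not left it at passage 19. In 32 genes neither R1 nor R5 had an early mean above the mark. The 7 genes of passage 17 are among the 40, the 42 and the 32. Ktch, cas, CG15554, mid, disco and stl left it in R1 at passage 16, while PPO2 and lectin-28C left it at passage 4 in both lines. Genes with an early mean below the mark were not followed further, so a later rise and fall is not counted. Among the 40, disco-r stood in R1 at 15.3 to 44.0 CPM at intermediate passages and at 5.28 to 11.0 CPM late, with a late R4 mean of 38.8 CPM. Among the 42, mid stood in R5 at 15.8 to 26.1 CPM and then at 2.43 to 7.40 CPM, with a late R4 mean of 32.2 CPM.

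R4 at passage 12 is 1 library, sampled between the intermediate and the late stage. Of the 79 genes, 51 stood there at 0.5 or more times their late mean and 20 at less than 0.25 times. The 20 include the 7 genes carried by passage 17. Passage 12 lay inside the late range for 22, inside the intermediate range for 41, above the late range for 24 and below it for 33. Of the genes carried by passage 17, CR41583, CR40963, CR40679 and CR40560 are among the 22. The intermediate range spans 5 libraries and the late range 3, so these counts are not like for like. The genes farthest above both neighbouring libraries were CG8539, at 10.9, 30.1 and 14.9 CPM at passages 11, 12 and 16, NimC1, at 27.2, 62.0 and 31 CPM, and CG15347, at 11.2, 15.7 and 11.4 CPM. Farthest below were CG33225, at 7.53, 2.31 and 5.30 CPM, CG11400, at 22, 10.4 and 18.8 CPM, and Miox, at 12.8, 7.97 and 13.0 CPM. Pxn at 32, 41.1 and 95.8 CPM and dac at 11.5, 15.8 and 32.2 CPM lay between their neighbours.

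By chromosome arm, 25 of the 79 genes (31.6%) lay on 2R, where 20.4% of the tested genes lie, and 5 (6.33%) on X, where 17.2% lie. Arms 2L and 3L held 13 each, 3R held 17 and the fourth chromosome held 1, and the 5 ribosomal RNA entries were matched to no arm. The annotated spans of 27 genes overlap another gene, most on the opposite strand, among them bam, dsx, Pxn, lov, Sema2b, Pgant9, NtR and CG33465, and reads of such partners cannot be told apart here. The symbol esn belongs to 2 entries of the files, of which 1 is among the 79.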

How the data were processed

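RNA of 32 passages of 3 Drosophila cell lines was extracted with TRIzol, depleted of ribosomal RNA with a Ribo-Zero kit for human, mouse and rat, and made into libraries with ScriptSeq v2, per the labels' protocols. The deposited values are whole-number counts of reads per gene, 1 table per library, which the authors made with TopHat 1.4.1, Bowtie 0.12.8 and bedtools on BDGP5/dm3, per the submitters' processing notes. The sources used here give neither the counting rule nor the strand setting. Of 15253 entries, 2 name no gene; they held at most 0.0187% of a library's counts and were left out. Current symbols were matched to 9370 entries by gene ID, 5062 by locus tag, 415 by synonym and 234 by symbol, and 170 kept the symbol of the files. No 2 libraries were identical.

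From the counts, CPM was computed per library total. The 79 genes and all gene lists were chosen with earlier results of these data known. Differences were tested with edgeR 4.0.16 (R 4.3.3, limma 3.58.1): quasi-likelihood F tests in 1 fit of 31 libraries, each line and stage being a group (9 in all, 22 residual degrees of freedom), with TMM scaling (factors 0.96 to 1.04), over the 9183 genes with 1 CPM or more in at least 3 libraries. P-values were adjusted by Benjamini-Hochberg within each of 9 comparisons, with a threshold of 0.05. The fit was tested on simulated counts before use. Tables and plots were made with Python 3.11.15, pandas 2.3.3, numpy 2.4.6 and matplotlib 3.10.9. Map order comes from a later annotation than the files' build, so no coordinates are given. Alternatives were DESeq2 1.42.0, total counts, other filters, other stage limits, passage as a block, other membership limits and each library left out.

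Same-numbered passages paired the early libraries: their deviations from the line means correlated in every pair of lines (r from 0.115 to 0.729). At intermediate passages r ran from -0.089 to 0.401, and there the number is not taken as a pairing.

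By rule, 55 genes were named: the 8 with the highest late R4 mean, the 8 with the highest ratio, up to 5 per list, 6 called at intermediate passages and up to 5 at early ones, 5 with the highest early mean among those lost in R1 and R5, neighbouring members, and 3 on each side of each limit and of passage 12. Sr-CI, NimB2, gol, sunn, Drgx, Tmhs, Ptr, Had2, CAH7, CG5399, CG4950, M7BP, geko, esn, CR40560, CG31445 and CG32845 were named outside that rule, after their values were seen.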

Additional observations from a re-analysis of the deposited data

Results flagged for a closer look

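At intermediate passages 15 of 110 groups of 5 libraries held a library far from the rest. Chance gives about 1 in 20 for independent normal values, but low counts and successive passages of 1 culture are not such values. The number is therefore not set against chance. In R4 these were dsx at passage 5 (12.8 CPM, nearest other 5.73), bam at passage 5 (4.6 CPM, nearest 2.02), and at passage 11 mid (85.7 CPM, nearest 57.8), dac (11.5 CPM, nearest 5.36) and CR40679 (0.551 CPM, nearest 0.371). In R1 at passage 5 they were lov (104 CPM, nearest other 34.2), dsx (18.7 CPM, nearest 3.81), Pxn (6.65 CPM, nearest 2.6), CG8539 (7.77 CPM, nearest 2.45), dac (1.04 CPM, nearest 0.363), Sema2b (40 CPM, nearest 33.1) and CR40963 (0.16 CPM, nearest 0). In R1 at passage 7 they were LKRSDH (25.5 CPM, nearest 13.2), He (11.8 CPM, nearest 5.55) and CG32106 (0.363 CPM, nearest 0.16).

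By a test of the difference itself (edgeR, adjusted p under 0.05), the change from early to intermediate passages was larger in R4 than in R1 for 14 of the 76 tested genes and smaller for 2. It was larger in R4 than in R5 for 12 and smaller for 1. These 2 comparisons share the R4 libraries.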

How the results depend on the processing

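Of 148 calls of named genes, 66 held under every alternative run and 82 were lost under at least 1. Counting passage 4 as intermediate ended 52, leaving out passage 2 of every line 31, no filter on low counts 12, passage as a block 11, adding passage 12 to intermediate R4 4, total counts 3, DESeq2 1 and the stricter filter 0; leaving out a single library ended 67. No scaling moved the median of all genes by more than 0.05. The cause was not tested.

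The numbers of members higher in intermediate R4 were 43 against R1 and 46 against R5, and 26 and 24 when members were chosen at 8-fold. Early, the 4 genes higher than in R1 were 7 with DESeq2, 0 with passage 4 as intermediate, 2 without passage 2, 7 with the replicate block of passage and 2 at 8-fold. The 4 higher than in R5 were 11, 8 and 8 with DESeq2, without passage 2 and with the block, and 0 with passage 4 as intermediate or at 8-fold. At 8-fold the 15 rises in R4 were 8, the falls in R1 and R5 were 11 each, and the larger changes than in R1 were 9. The falls in R5 were 10 with passage 4 as intermediate and 10 without passage 2. With passage 4 as intermediate, 1 change was larger than in R1 and 6 than in R5; with the block the changes larger than in R5 were 20. With the block, members lower in R4 than in R1 were 3 in place of 5 at intermediate passages and 1 in place of 0 early, and no change was smaller in R4. It moved no other count of members by over 1.5 times (37 and 48 higher at intermediate passages, 16 larger changes than in R1), and stages within a line cannot carry it.

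The limits gave 42 members at 8-fold, 101 at 3-fold, 56 at 10 CPM, 79 with TMM scaling and 39 when every late library had to pass. Gained genes were 47 and genes lost in R1 and R5 34 at 2-fold. CG33225, lower in intermediate than early R4 by -2.69, stood at 0.30 without passage 2 of every line (adjusted p = 0.82) and without R4 at passage 2 (adjusted p = 0.852), and ran from -3.30 to 0.30 with 1 library left out.

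Without 1 library at a time the counts ran from 35 to 46 (intermediate, against R1), 37 to 50 (against R5), 0 to 6 and 0 to 11 (early), 9 to 23 (rises in R4), 13 to 23 (falls in R1), 4 to 27 (falls in R5), 6 to 19 and 6 to 20 (changes larger than in R1 and R5), and 67 to 82 for the members themselves. Chosen after seeing the data, membership without R4 at passage 17 gave 41 and 44 at intermediate passages, 3 and 4 early, 13 rises in R4, 19 falls in R1, 20 in R5, and 14 and 11 larger changes. A description of promoter motifs was not run.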
